A study of Mus musculus with 10 samples.

Results

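The genes described here are 10 immediate early genes of 3 families: the zinc finger factors Egr1, Egr2 and Egr3, the AP-1 subunits Fos, Fosb, Jun and Junb, and the orphan nuclear receptors Nr4a1, Nr4a2 and Nr4a3. They were chosen by name from the 23992 gene symbols of the deposited tables, and each is represented by the transcript that held the most reads over all libraries. All 10 were found and all 10 passed the filter on low counts, among 14357 genes tested. Spleen CD8+ T cells of C57BL/6N mice were stimulated for 48 h with plate-bound anti-CD3 and soluble anti-CD28 (2 µg/ml each), pooled, washed and cultured for a further 48 h. The groups were IL-21 + LDHi, IL-21 (100 ng/ml, mouse), IL-2 + LDHi, IL-2 (100 IU/ml, human) and no cytokine, with 2 poly(A) RNA libraries in each of the 5. LDHi stands for NCI-737 at 1 µM, an inhibitor of lactate dehydrogenase known by its code name, which was given at activation and again with the cytokine. Both inhibitor groups had it at both steps, so its effect during activation and its effect during the cytokine culture cannot be told apart. No group had the inhibitor without a cytokine in the second culture.

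Immediate early genes are transcribed within minutes of a stimulus and without new protein synthesis, and their transcripts are short-lived. In T cells, signals from the antigen receptor reach Egr1 and Fos mainly through ERK and the serum response factor, and reach the NR4A genes through calcium, NFAT and CREB, while cytokine receptors act mainly through STAT proteins. EGR2 and EGR3 restrain T cell responses, AP-1 dimers of FOS and JUN proteins cooperate with NFAT to drive effector genes, and NR4A factors are known for their part in T cell exhaustion and tolerance. The libraries were made after 48 h of the second culture, so the levels do not describe the acute response to the activating antibodies. Whether handling at harvest changed them was not tested.

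The authors' totals were 45138204 to 62848913 reads per library, and the transcripts used here held 27137186 to 46656186 of them. The lowest was IL-21 replicate 2, with 59.9% of its total on these transcripts against 74.6% in IL-21 replicate 1, and the SD of the log2 difference between replicates over all genes was 0.76 in IL-21 and 0.302 to 0.488 in the other groups. Of 11 genes of T cell and CD8 identity in the files none was below 1 RPKM (reads scaled by transcript length and library total, the authors' value) in any group, and their summed level was 1867 to 1871 RPKM in IL-21 + LDHi, 1907 to 2622 in IL-21, 2483 to 2596 in IL-2 + LDHi, 2252 to 2400 in IL-2 and 2035 to 2606 without cytokine. Single genes in these sums moved more. In IL-21 + LDHi against IL-21, 0 of the 11 rose and 5 fell at edgeR adjusted p below 0.05, beside 11.1% and 20.3% of all genes tested. Mean levels of Cd28 and Cd5 were 6.05 and 21.6 RPKM in IL-21 + LDHi and 25.9 and 52.6 in IL-21. Lck was at 284 and 260 RPKM in these groups. The sums of some lists of markers of other cells differed far more between groups. For 12 erythroid, megakaryocyte and stromal genes they were 62.1 to 66.6 RPKM in IL-21 + LDHi and 300 to 309.8 in IL-21. In IL-2 + LDHi they were 49.68 to 53.05 RPKM, in IL-2 31.8 to 32.8 and without cytokine 486 to 712. The B cell sums of IL-21 + LDHi (6.70 to 21.4 RPKM) and IL-21 (6.415 to 23.9) overlapped. The summed level of 16 granulocyte, basophil and mast cell genes was 1.69 to 2.67 RPKM in IL-21 + LDHi, 126 to 163.6 in IL-21, 3.32 to 3.74 in IL-2 + LDHi, 6.89 to 6.91 in IL-2 and 374 to 758 without cytokine. In bulk RNA, fewer cells of a type and less RNA per cell cannot be told apart. The labels do not say whether the libraries of a group came from separate mice or cultures, so a p-value reflects library-to-library spread alone, which may be technical. Fold changes are log2 values ± SE from edgeR's quasi-likelihood test, and a gene is called where the Benjamini-Hochberg adjusted p over all genes tested is below 0.05.

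Over the groups, 8 of the 10 genes had their lowest mean level in IL-21 + LDHi, and the exceptions were Jun, lowest without cytokine, and Junb, lowest in IL-2 + LDHi. The highest group mean was 97.3 times the lowest for Nr4a2, 33.9 times for Nr4a3, 31.3 times for Nr4a1, 22.6 times for Egr3, 20.4 times for Egr1, 15.8 times for Egr2, 13.2 times for Fosb, 9.31 times for Jun, 5.58 times for Fos and 3.51 times for Junb. On the RPKM scale, which allows for transcript length, Junb was the most abundant of the 10 in every group. In RefSeq coordinates of GRCm38.p6 the JUN genes lie at chr4:95049036-95052222 (Jun) and chr8:84976909-84978748 (Junb), the FOS genes at chr12:85473890-85477274 (Fos) and chr7:19302696-19310118 (Fosb), and the EGR relatives at chr10:67534469-67542188 (Egr2) and chr14:70077317-70082613 (Egr3). The NR4A genes lie at chr15:101253902-101274795 (Nr4a1), chr2:57106830-57124003 (Nr4a2) and chr4:48045078-48086447 (Nr4a3), so the 3 receptors are not neighbours.

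**Figure D1:**
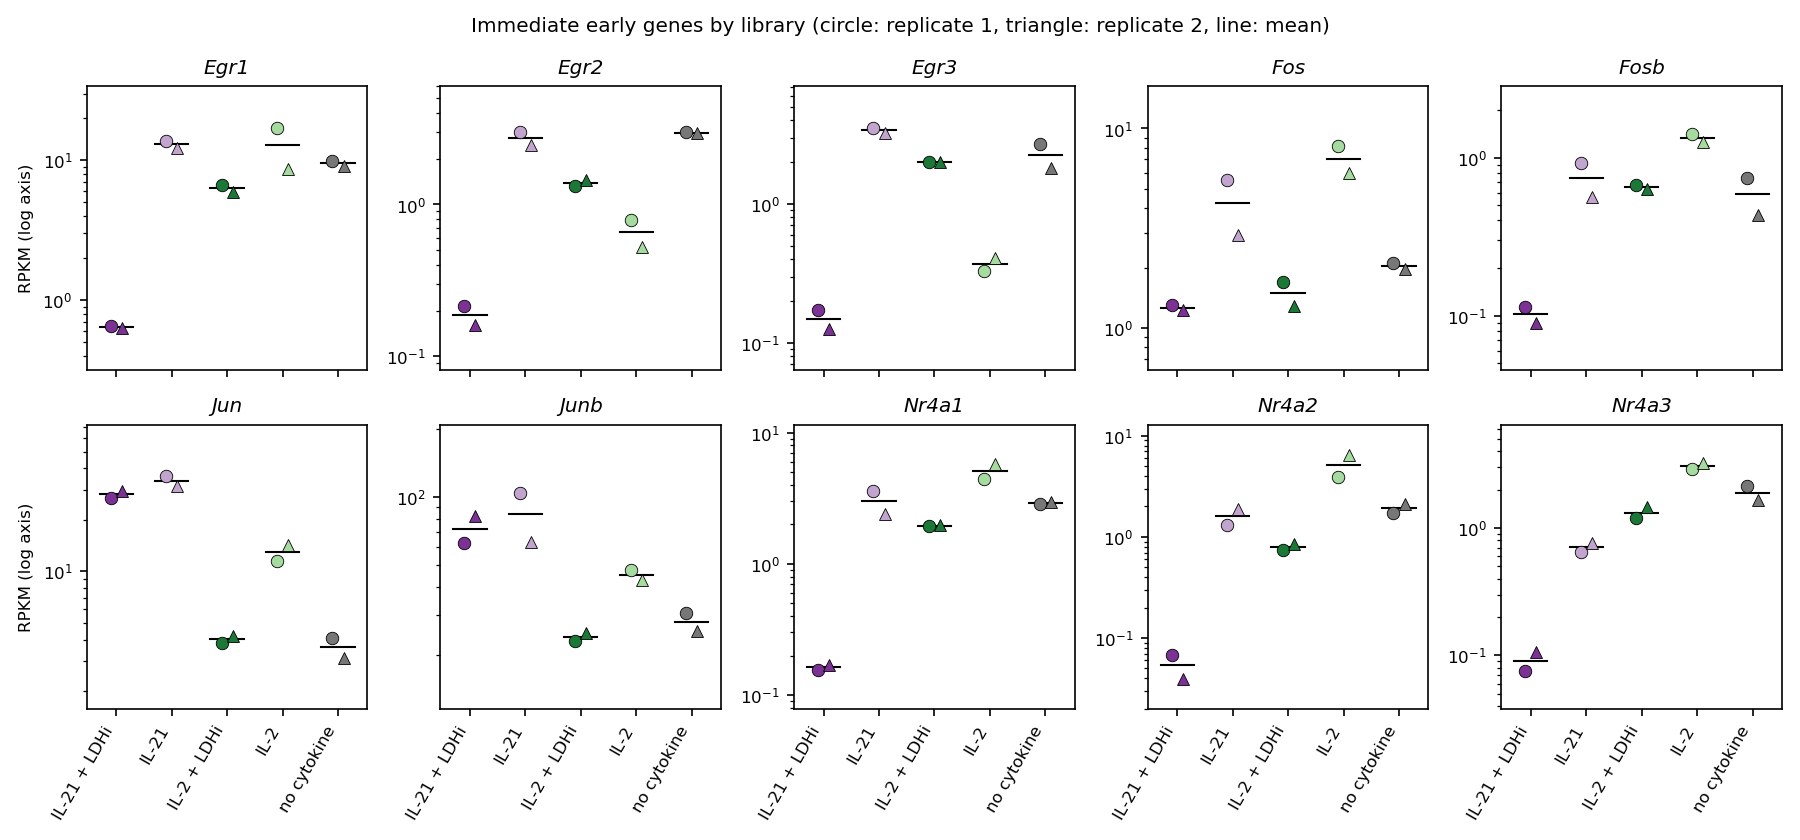
RPKM of each of the 10 genes (vertical log axis, 1 panel a gene) in the 5 groups (horizontal axis); points are libraries and bars are the means of 2. In 7 panels both IL-21 + LDHi points lie lowest, at 0.650 and 0.630 RPKM for Egr1, while the Jun points of that group stand at 27.0 and 29.3 RPKM.

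Egr1, the most readily induced EGR gene after receptor engagement, had 0.650 and 0.630 RPKM with IL-21 + LDHi, 13.8 and 12.3 with IL-21, 6.68 and 5.95 with IL-2 + LDHi, 17.0 and 8.59 with IL-2, and 9.91 and 9.16 without cytokine. Both IL-21 + LDHi libraries lay below every other library, and the IL-2 pair spanned the IL-21 and no-cytokine values. Egr2, which limits T cell activation, had 0.213 and 0.161 RPKM with IL-21 + LDHi, 3.01 and 2.45 with IL-21, 1.32 and 1.46 with IL-2 + LDHi, 0.787 and 0.524 with IL-2, and 2.98 and 2.94 without cytokine. Egr3, its close relative, had 0.173 and 0.127 RPKM with IL-21 + LDHi, 3.53 and 3.24 with IL-21, 1.99 and 2.01 with IL-2 + LDHi, 0.327 and 0.409 with IL-2, and 2.68 and 1.81 without cytokine. For Egr2 and Egr3 the order from the lowest was IL-21 + LDHi, then IL-2, then IL-2 + LDHi, and the IL-21 and no-cytokine libraries overlapped for Egr2 but not for Egr3. Within a library the Egr3 level was 0.198 to 0.337 of the Egr1 level in the groups other than IL-2, and 0.0193 and 0.0476 of it in the IL-2 libraries.

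Fos, the inducible partner that forms AP-1 with a JUN protein, had 1.30 and 1.23 RPKM with IL-21 + LDHi, 5.51 and 2.94 with IL-21, 1.69 and 1.29 with IL-2 + LDHi, 8.16 and 5.96 with IL-2, and 2.12 and 1.98 without cytokine. Fosb, a less abundant FOS family member, had 0.113 and 0.0898 RPKM with IL-21 + LDHi, 0.922 and 0.567 with IL-21, 0.674 and 0.638 with IL-2 + LDHi, 1.42 and 1.25 with IL-2, and 0.747 and 0.434 without cytokine. Both FOS genes were highest in IL-2, where neither overlapped another group. Jun, which binds DNA as a dimer with FOS or ATF proteins, had 27.0 and 29.3 RPKM with IL-21 + LDHi, 35.98 and 31.4 with IL-21, 3.82 and 4.19 with IL-2 + LDHi, 11.6 and 14.3 with IL-2, and 4.10 and 3.14 without cytokine. Junb, which pairs with FOS and BATF proteins, had 62.4 and 82.6 RPKM with IL-21 + LDHi, 105 and 63.5 with IL-21, 23.0 and 24.9 with IL-2 + LDHi, 47.5 and 43.1 with IL-2, and 30.6 and 25.6 without cytokine. Both JUN genes were thus highest in the pair of IL-21 groups, with and without the inhibitor, where Junb overlapped and Jun did not. The Jun level was 41.5 and 46.6 times the Egr1 level in the IL-21 + LDHi libraries, 2.61 and 2.56 times with IL-21, 0.573 and 0.704 times with IL-2 + LDHi, 0.682 and 1.66 times with IL-2, and 0.414 and 0.342 times without cytokine.

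Nr4a1 (Nur77), widely used as a reporter of antigen receptor signalling, had 0.156 and 0.169 RPKM with IL-21 + LDHi, 3.61 and 2.40 with IL-21, 1.93 and 1.99 with IL-2 + LDHi, 4.45 and 5.73 with IL-2, and 2.84 and 2.94 without cytokine. Nr4a2 had 0.0673 and 0.0395 RPKM with IL-21 + LDHi, 1.31 and 1.90 with IL-21, 0.747 and 0.858 with IL-2 + LDHi, 3.96 and 6.44 with IL-2, and 1.74 and 2.10 without cytokine. Nr4a3 had 0.0757 and 0.106 RPKM with IL-21 + LDHi, 0.649 and 0.761 with IL-21, 1.19 and 1.45 with IL-2 + LDHi, 2.92 and 3.23 with IL-2, and 2.12 and 1.65 without cytokine. All 3 receptors were highest in IL-2 and lowest in IL-21 + LDHi, with no overlap of either group with another. The lowest levels rest on few reads: Nr4a2 had 10 reads (95% exact Poisson interval 4.79 to 18.4) and 6 reads (2.202 to 13.06) in the IL-21 + LDHi libraries, and Nr4a3 had 7 (2.81 to 14.4) and 10. These intervals cover counting error only.

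RefSeq promoter windows (GRCm38.p6, 250 bases before a start site) were available for 8 of the 10 genes. They are shown for 3 genes that fell by 14.9-fold or more when the inhibitor was added to IL-21 and for the JUN genes, which did not pass the test there, so that their upstream sequences can be set side by side. Capitals mark matches, on either strand, to the CArG box bound by serum response factor, the CRE core TGACG bound by CREB and ATF proteins, and the EGR motif GCGNGGGCG. Searches for the full CRE TGACGTCA, the AP-1 motif TGANTCA, the NR4A motif AAAGGTCA and the STAT motif TTCNNNGAA gave no match in these 5 sequences.
Egr2, chr10:67537619-67537868, plus strand: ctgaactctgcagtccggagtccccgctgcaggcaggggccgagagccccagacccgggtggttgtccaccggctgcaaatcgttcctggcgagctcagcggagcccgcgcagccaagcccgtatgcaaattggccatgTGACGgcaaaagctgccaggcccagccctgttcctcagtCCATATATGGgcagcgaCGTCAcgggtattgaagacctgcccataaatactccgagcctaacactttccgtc
Nr4a1, chr15:101266596-101266845, plus strand: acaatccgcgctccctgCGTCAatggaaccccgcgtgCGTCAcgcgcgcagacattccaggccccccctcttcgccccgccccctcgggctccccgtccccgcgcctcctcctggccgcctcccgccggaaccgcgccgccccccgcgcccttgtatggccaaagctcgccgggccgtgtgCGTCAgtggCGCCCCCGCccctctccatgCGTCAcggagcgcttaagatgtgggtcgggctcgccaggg
Nr4a2, chr2:57124004-57124253, minus strand: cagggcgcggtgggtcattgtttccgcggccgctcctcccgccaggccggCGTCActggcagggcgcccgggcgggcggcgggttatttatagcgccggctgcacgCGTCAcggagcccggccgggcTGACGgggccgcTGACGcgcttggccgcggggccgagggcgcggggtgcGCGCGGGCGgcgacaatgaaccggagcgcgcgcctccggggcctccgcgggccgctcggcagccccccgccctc
Jun, chr4:95052223-95052472, minus strand: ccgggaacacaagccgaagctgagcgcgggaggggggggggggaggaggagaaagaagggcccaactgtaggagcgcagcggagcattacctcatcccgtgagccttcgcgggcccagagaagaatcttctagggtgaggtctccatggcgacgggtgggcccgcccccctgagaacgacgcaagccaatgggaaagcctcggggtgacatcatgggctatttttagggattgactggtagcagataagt
Junb, chr8:84978749-84978998, minus strand: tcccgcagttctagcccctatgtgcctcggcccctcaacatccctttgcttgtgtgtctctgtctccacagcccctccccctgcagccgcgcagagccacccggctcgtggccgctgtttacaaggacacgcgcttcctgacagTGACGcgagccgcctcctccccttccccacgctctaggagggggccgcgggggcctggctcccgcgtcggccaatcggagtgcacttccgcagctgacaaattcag
Positions are counted back from the start site at -1. The Egr2 sequence held a CArG box at -72 to -63 and 2 CRE cores, and a CArG box was found in 1.47% of 32817 mouse promoter windows. Nr4a1 and Nr4a2 each held 4 CRE cores and 1 EGR motif, at -60 to -52 in Nr4a1 and at -74 to -66 in Nr4a2. At least 1 CRE core was found in 17.7% of windows, at least 3 in 0.689%, and the EGR motif in 4.7%. Junb held 1 CRE core at -106 to -102, and none of the 7 motifs was found in the Jun sequence. Its stretch tgacatca differs from the full CRE by 1 base, and such variants were not searched for. Among windows not shown, of genes that also fell, Nr4a3 held 4 CRE cores, Fos 2, and Fosb 1 with 1 EGR motif. Other Egr2 windows are not shown either. No marked match overlapped another. A match of letters is not evidence of binding, and the CRE core was added to the search after the sequences had been seen.

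Adding the inhibitor to IL-21 was followed by a fall of 8 of the 10 genes, while the JUN genes did not pass the test. Nr4a2 fell 31.1-fold, Egr3 23.0-fold, Egr1 20.8-fold, Nr4a1 18.6-fold and Egr2 14.9-fold, Nr4a3 and Fosb fell 7.93-fold and 7.35-fold, and Fos fell 3.34-fold. Thus 0 of 10 rose and 8 of 10 fell, where 11.1% of all genes tested rose and 20.3% fell, and the median change was -3.44 over the 10 and -0.03 over all genes tested. For 9 of the 10 genes the IL-21 + LDHi and IL-21 libraries did not overlap, the exception being Junb, as was so for 56.9% of all genes tested. The log2 changes were -4.38 ± 0.32 for Egr1 (edgeR adjusted p = 1.3e-05), -3.89 ± 0.26 for Egr2 (8.3e-06) and -4.52 ± 0.31 for Egr3 (9.99e-06). In the AP-1 family they were -1.74 ± 0.26 for Fos (adjusted p = 0.00109), -2.88 ± 0.33 for Fosb (0.000225), -0.29 ± 0.14 for Jun (0.15) and -0.22 ± 0.17 for Junb (0.364). In the NR4A family they were -4.21 ± 0.22 for Nr4a1 (adjusted p = 1.95e-06), -4.96 ± 0.44 for Nr4a2 (4.8e-05) and -2.99 ± 0.33 for Nr4a3 (0.000174). All 8 calls held when any 1 library was left out. For Junb the change was 0.0067 without IL-21 replicate 1.

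Genes listed as markers of other cells moved with this comparison. Which cells held their RNA, and their part in the result, was not tested. Of the 16 granulocyte, basophil and mast cell genes 13 fell and 0 rose, and in IL-21 + LDHi all 16 were below 1 RPKM, with S100a8, S100a9, Elane and Il4 at 0 reads in both libraries. Of 21 myeloid and dendritic genes tested 15 fell and 1 rose, with summed levels of 165 to 173 RPKM in IL-21 + LDHi and 638.5 to 719 in IL-21. Most of the IL-21 sum was Ly6c2, with a mean of 481 RPKM in IL-21 and 48.6 in IL-21 + LDHi. Ctss was at 88.2 RPKM in IL-21 and 90.2 in IL-21 + LDHi. Of 7 NK cell genes 6 fell, with sums of 12.4 to 12.7 RPKM in IL-21 + LDHi and 63.5 to 69.1 in IL-21. Klrk1 and Eomes were at 38.7 and 15.6 RPKM in IL-21, and at 0.869 and 10.9 in IL-21 + LDHi. Ncr1 was at 0.118 RPKM in IL-21 and 0.0618 in IL-21 + LDHi. Of 14 heat shock and handling stress genes tested 1 rose and 1 fell between IL-21 + LDHi and IL-21.

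Adding the inhibitor to IL-2 changed all 10 genes, in both directions: 8 fell and 2 rose. The 2 that rose were Egr3, 5.26-fold, and Egr2, 2.06-fold, while Nr4a2 fell 6.66-fold, Fos 4.85-fold and Jun 3.32-fold. Among all genes tested 17.8% rose and 21.6% fell, and the median change was -1.16 over the 10 and 0.01 over all genes tested. No gene of the 10 had overlapping IL-2 + LDHi and IL-2 libraries, where 82.3% of all genes had none either. The log2 changes were -1.06 for Egr1 (edgeR adjusted p = 0.0123), 1.04 for Egr2 (0.00664) and 2.39 for Egr3 (0.000254). In the AP-1 family they were -2.28 for Fos (adjusted p = 0.000238), -1.07 for Fosb (0.0162), -1.73 for Jun (6e-05) and -0.96 for Junb (0.00284). In the NR4A family they were -1.42 for Nr4a1 (adjusted p = 0.000383), -2.73 for Nr4a2 (0.000361) and -1.26 for Nr4a3 (0.00434). The Egr1 call rests on IL-2 replicate 1: without it the change was -0.47 (adjusted p = 0.0609), and the call was also lost without IL-2 + LDHi replicate 1 (0.0529) or 2 (0.0867) and in a fit of these groups alone (0.165). The Fosb call was lost without any 1 of the 4 libraries compared (adjusted p 0.0527 to 0.109), Egr2 without IL-2 + LDHi replicate 2 (0.0513) and Nr4a3 without IL-2 + LDHi replicate 1 (0.0549). Of the heat shock and handling stress genes 1 rose and 7 fell here, and the granulocyte list had 0 higher and 3 lower of 16, while 13 of 21 myeloid and dendritic genes rose and 2 fell, and 4 of 7 NK cell genes rose and 1 fell; their part in the result was not tested.

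**Figure D2:**
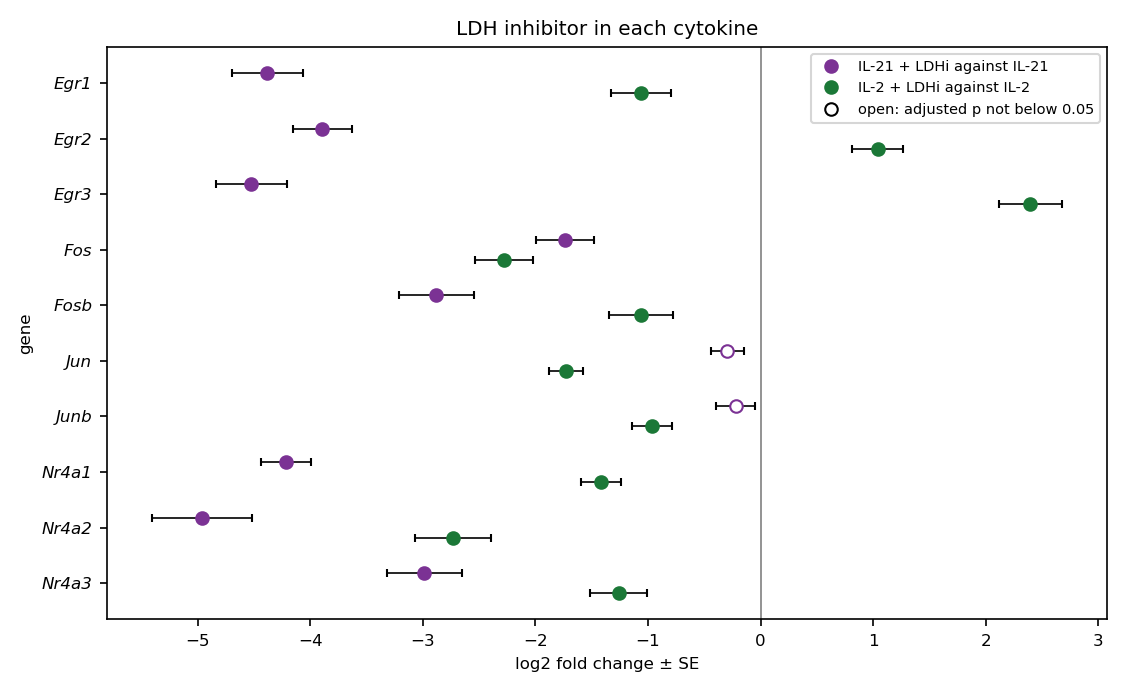
Log2 fold change of each of the 10 genes (points, with bars of 1 SE; n = 2 libraries a group) for IL-21 + LDHi against IL-21 and for IL-2 + LDHi against IL-2. Egr2 and Egr3 lie at -3.89 and -4.52 with IL-21 and at 1.04 and 2.39 with IL-2, whereas Jun and Junb lie at -0.29 and -0.22 with IL-21 and at -1.73 and -0.96 with IL-2.

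Whether the inhibitor's effect differed between the cytokines was tested as an interaction, the log2 change with IL-21 minus that with IL-2. Egr3 had the largest difference of the 10, at -6.92 ± 0.42 (edgeR adjusted p = 1.35e-05), which placed it 75th from the lowest of 14357 genes. Egr2 (-4.93 ± 0.35, adjusted p = 2.96e-05) and Egr3 moved in opposite directions with the 2 cytokines, down with IL-21 and up with IL-2. Egr1 (-3.32 ± 0.40, adjusted p = 0.000579), Nr4a1 (-2.80, 0.000205), Nr4a2 (-2.22, 0.0212), Nr4a3 (-1.73, 0.0179) and Fosb (-1.81, 0.0169) fell with both and by more with IL-21. Jun was the only one of the 10 with a called difference in the other direction, 1.44 ± 0.21 (adjusted p = 0.00145), and the differences for Junb (0.74, 0.0635) and Fos (0.54, 0.323) did not pass. In all, 1 of 10 differences was positive and 7 of 10 negative among those called, where 7.98% of all genes were positive and 13.8% negative, and the median was -2.02 over the 10 and -0.08 over all genes.

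The interaction is a difference of log ratios, and adding a constant to RPKM before the logarithm makes the smallest levels count for less. With limma on log2(RPKM + 1) the differences for Nr4a2 and Nr4a3 were 0.46 (adjusted p = 0.317) and 0.17 (0.534), the reverse of the count test. Nr4a1 (-0.73, 0.0655) and Fosb (-0.16, 0.584) kept the direction there without passing. The reversal depended on the constant of 1. With limma on log2(RPKM + 0.1) Nr4a2 (-0.94, adjusted p = 0.139), Nr4a3 (-0.92, 0.0648) and Fosb (-1.11, 0.0914) were negative and did not pass. The count-based calls for Fosb, Nr4a2 and Nr4a3 were also lost without single libraries: Fosb without IL-21 + LDHi replicate 2 or any 1 of the IL-2 + LDHi and IL-2 libraries (adjusted p 0.0508 to 0.0819), Nr4a2 without IL-21 + LDHi replicate 2, IL-2 + LDHi replicate 2 or IL-2 replicate 1 (0.0631 to 0.109), and Nr4a3 without IL-21 + LDHi replicate 1, IL-2 + LDHi replicate 2 or either IL-2 library (0.0528 to 0.0906). The Junb difference was called with DESeq2 (0.75, adjusted p = 0.0265) and with no filter (0.745, edgeR adjusted p = 0.0455), and it was 0.97 without IL-21 replicate 1. Genes listed as markers of other cells differed in the same interaction, with 9 of 16 granulocyte and basophil genes, 16 of 21 myeloid genes and all 7 NK cell genes negative (NK cell median -4.83). Which cells held their RNA, and their part, was not tested.

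With the inhibitor present in both groups, the JUN genes were higher with IL-21 and the EGR and NR4A genes were lower. In IL-21 + LDHi against IL-2 + LDHi, Jun (2.99, edgeR adjusted p = 1.38e-06) and Junb (1.78, 9.9e-05) were higher, and Egr1 (-3.12, 7.72e-05), Egr2 (-2.70, 6.26e-05), Egr3 (-3.55, 3.85e-05), Fosb (-2.51, 5e-04), Nr4a1 (-3.40, 4.64e-06), Nr4a2 (-3.71, 0.000289) and Nr4a3 (-3.66, 4.08e-05) were lower. Fos, at -0.06 (0.893), did not pass. The count was 2 of 10 higher and 7 of 10 lower, where 9.38% of all genes were higher and 16.7% lower, with a median of -2.91 over the 10 and 0.01 over all genes. For 9 of the 10 genes, and for 75.6% of all genes, the libraries of these groups did not overlap. No call or missed call among the 10 changed under any alternative run, although the small Fos value was 0.16 without IL-2 + LDHi replicate 1. The granulocyte and basophil sums were 1.69 to 2.67 RPKM in IL-21 + LDHi and 3.32 to 3.74 in IL-2 + LDHi. Of 21 myeloid and dendritic genes 1 was higher and 7 lower, with sums of 165 to 173 RPKM in IL-21 + LDHi and 308 to 348 in IL-2 + LDHi. In these sums Ly6c2 was at 48.6 RPKM in IL-21 + LDHi and 205 in IL-2 + LDHi, and Ctss at 90.2 and 66.9. Of 5 CD4 T cell genes 1 was higher and 3 lower. All 7 NK cell genes were lower in IL-21 + LDHi (sums 12.4 to 12.7 against 64.0 to 67.0 RPKM). Most of these sums came from Eomes, Klrk1 and Klre1, at 30.1, 15.5 and 7.92 RPKM in IL-2 + LDHi and 10.9, 0.869 and 0.243 in IL-21 + LDHi. Ncr1 and Klrb1c were at 4.12 and 4.36 RPKM in IL-2 + LDHi and 0.0618 and 0.28 in IL-21 + LDHi. Which cells held these transcripts, and their part in the result, was not tested.

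In IL-2 against no cytokine, Egr2 and Egr3 fell while the AP-1 and NR4A genes rose. Egr2 fell by 2.19 ± 0.23 (edgeR adjusted p = 8.86e-05) and the Egr3 change was -2.62 ± 0.28 (9.01e-05), and Egr1 did not pass (0.41 ± 0.26, 0.224). All AP-1 and NR4A genes rose, by 1.77 ± 0.26 for Fos (adjusted p = 0.000511), 1.16 ± 0.29 for Fosb (0.00874), 1.82 ± 0.15 for Jun (2.46e-05), 0.67 ± 0.18 for Junb (0.0116), 0.80 ± 0.18 for Nr4a1 (0.00484), 1.42 ± 0.32 for Nr4a2 (0.00555) and 0.69 ± 0.25 for Nr4a3 (0.0449). That made 7 of 10 higher and 2 of 10 lower, where 25.6% of all genes were higher and 24.8% lower, and the median was 0.74 over the 10 and -0.03 over all genes. The members' share of lower calls was near that background, and 9 of the 10 had libraries that did not overlap, beside 78.2% of all genes. The AP-1 and NR4A changes stayed positive under every alternative, at 0.56 to 1.60 for Fosb and 0.50 to 0.88 for Nr4a3. Several of the smaller calls did not hold under all of them. They were lost for Fosb without IL-2 replicate 1 (adjusted p = 0.0594), for Junb without IL-2 replicate 1 (0.0781), without no-cytokine replicate 2 (0.0747) or with limma on log2(RPKM + 1) (0.0516), for Nr4a1 and Nr4a2 without IL-2 replicate 2 (0.0505 and 0.0543), and for Nr4a3 without any 1 of the 8 libraries other than the IL-21 pair (0.0558 to 0.194), with library size alone (0.0907) or with no filter (0.0581). Egr1, whose IL-2 libraries differed by 1.01 on the log2 scale, was at 0.84 (adjusted p = 0.00388) without IL-2 replicate 2 and at -0.18 without IL-2 replicate 1. Of the granulocyte and basophil genes 14 of 16 were lower and 2 higher in IL-2, and of the myeloid genes 17 of 21 lower. Of 14 heat shock and handling stress genes 8 were higher and 0 lower in IL-2 (median 0.81), with Hspa1a, an inducible heat shock protein named after its values were seen, at 0.0863 and 13.1 RPKM in the IL-2 libraries and 0.0254 and 0.0317 RPKM without cytokine. Of 7 nuclear and noncoding RNAs 4 were lower. The part of these lists in the result was not tested.

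IL-21 against no cytokine moved fewer of the 10. Jun rose by 3.38 ± 0.16 (edgeR adjusted p = 1.03e-05), Junb by 1.71 ± 0.18 (0.000718) and Fos by 1.17 ± 0.25 (0.0206), while Nr4a3 fell by 1.25 ± 0.26 (0.018). Values that did not pass were 0.61 for Egr1 (adjusted p = 0.174), 0.04 for Egr2 (0.933), 0.75 for Egr3 (0.0864), 0.46 for Fosb (0.336), 0.19 for Nr4a1 (0.529) and -0.07 for Nr4a2 (0.918). Thus 3 of 10 were higher and 1 of 10 lower, where 5.65% of all genes were higher and 5.89% lower, and 6 of the 10 had libraries that did not overlap, beside 42.6% of all genes. The median was 0.54 over the 10 and -0.01 over all genes. In a fit of these groups alone the calls for Fos (0.182) and Nr4a3 (0.234) were lost, as they were for Fos without no-cytokine replicate 1 (0.0717) or 2 (0.106) and for Nr4a3 without no-cytokine replicate 1 (0.073). Egr1 was called, at 0.61, without IL-2 replicate 1 (0.0298) or 2 (0.0272), which are not in the comparison but share its estimate of spread, and the small Nr4a2 value was 0.30 without IL-21 replicate 1 and 0.09 without no-cytokine replicate 2. The Egr2 value was -0.04 with library size alone. With limma on log2(RPKM + 1) or log2(RPKM + 0.1) the Fos call was lost too (adjusted p = 0.0855 and 0.0717). Of the granulocyte and basophil genes 5 of 16 were lower in IL-21, and of the myeloid genes 1 of 21 was higher and 7 lower; their part was not tested.

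Between the cytokines, IL-21 against IL-2, Egr2 (2.23, edgeR adjusted p = 0.000103), Egr3 (3.37, 3.32e-05), Jun (1.56, 6.22e-05) and Junb (1.04, 0.00144) were higher in IL-21. The NR4A genes were lower in IL-21, Nr4a1 at -0.60 (adjusted p = 0.0189), Nr4a2 at -1.48 (0.00504) and Nr4a3 at -1.93 (0.000424). Egr1 (0.20, 0.552), Fos (-0.60, 0.0706) and Fosb (-0.69, 0.0695) did not pass. This gave 4 of 10 higher and 3 of 10 lower, where 24.9% of all genes were higher and 24.7% lower, with medians of -0.20 over the 10 and 0.02 over all genes. The libraries of 9 of the 10 genes, and of 68.8% of all genes, did not overlap. The Nr4a1 call was lost without IL-21 replicate 2 (0.0679) or IL-2 replicate 2 (0.152) and with these groups alone (0.0991). Egr1 was at 0.79 (adjusted p = 0.00917) without IL-2 replicate 1 and at -0.23 without IL-2 replicate 2, Fos was called without IL-21 replicate 1 (-0.94, 0.00992), and Fosb without IL-21 replicate 1 (0.0379) or either no-cytokine library (0.0377 and 0.037). The granulocyte and basophil genes (14 of 16 higher in IL-21, 2 lower) and the myeloid genes (16 of 21 higher) moved in this comparison, as did heat shock and handling stress genes (0 of 14 higher, 7 lower) and nuclear and noncoding RNAs (6 of 7 higher). Their part was not tested. IL-21 against no cytokine, IL-2 against no cytokine and IL-21 against IL-2 share libraries, as do the inhibitor comparisons with them, so these values are not independent of each other.

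**Figure D3:**
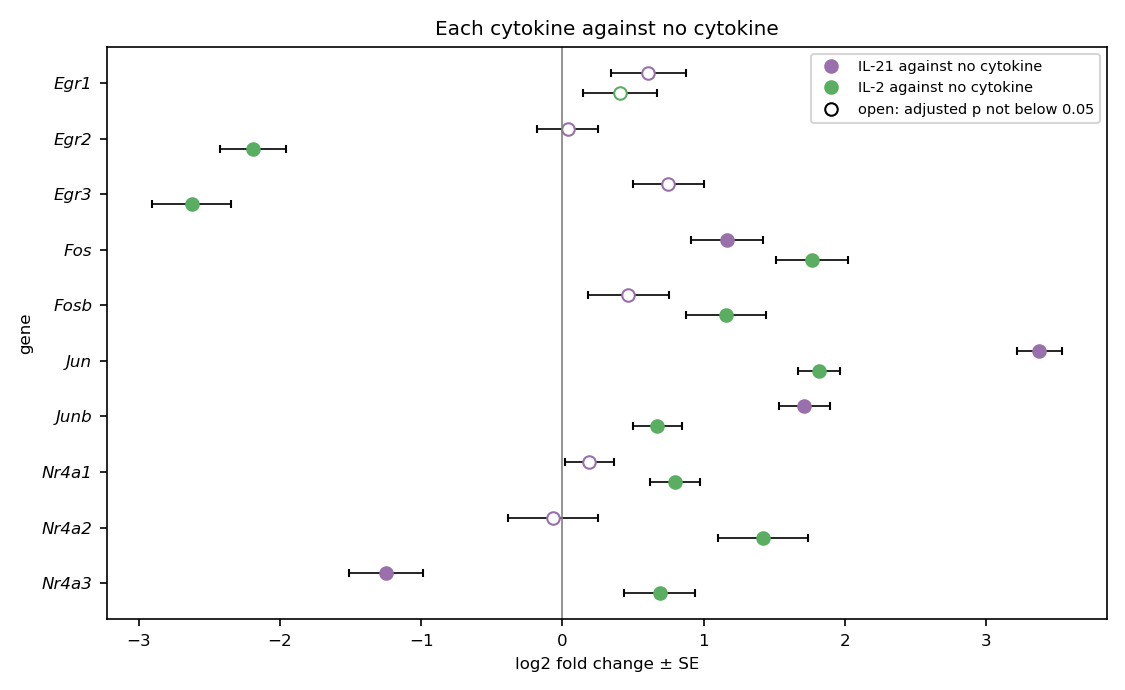
Log2 fold change of each of the 10 genes (points, with bars of 1 SE, n = 2 libraries a group) for IL-21 against no cytokine and for IL-2 against no cytokine. Jun rose by 3.38 with IL-21 and by 1.82 with IL-2, while Egr3 lies at -2.62 with IL-2 and at 0.75 with IL-21.

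The inhibitor groups were also set against cells that had neither cytokine nor inhibitor, a comparison in which both agents differ. In IL-2 + LDHi, Egr2 (-1.15, edgeR adjusted p = 0.00548), Nr4a2 (-1.32, 0.0186) and Nr4a1 (-0.62, 0.032) were lower and none of the 10 was higher, where 10.9% of all genes were higher and 13.3% lower. The median was -0.54 over the 10 and -0.03 over all genes, and 7 of the 10 had libraries that did not overlap, beside 67.3% of all genes. The other 7 lay between -0.65 (Egr1) and 0.09 (Fosb), with adjusted p of 0.113 or more, and leaving out 1 no-cytokine library turned the sign of the small Egr3 (0.08 without replicate 1), Fosb (-0.23 without replicate 2) and Jun (-0.08 without replicate 2) values. Here Nr4a1 was lost under 7 of the 8 fits that left out a library other than the IL-21 pair (adjusted p 0.0509 to 0.187), Nr4a2 without either IL-2 + LDHi library or no-cytokine replicate 2 (0.084 to 0.13) and Egr2 without IL-2 + LDHi replicate 1 (0.0659), and Egr1 was called without IL-2 replicate 1 or 2 (0.0107 and 0.0108). The Nr4a1 call was also lost with no filter (edgeR adjusted p = 0.0553) and with limma on log2(RPKM + 1) (0.134) or log2(RPKM + 0.1) (0.128). Egr1 was also called in an edgeR fit of the IL-2 + LDHi and no-cytokine groups alone (-0.64, 0.0124). In IL-21 + LDHi, Jun (3.08, adjusted p = 1.84e-06) and Junb (1.49, 0.000209) were higher. Egr1 (-3.77, 2.12e-05), Egr2 (-3.86, 7.45e-06), Egr3 (-3.77, 2.14e-05), Fosb (-2.41, 0.000443), Nr4a1 (-4.02, 2.23e-06), Nr4a2 (-5.03, 3.18e-05) and Nr4a3 (-4.23, 1.47e-05) were lower. That made 2 of 10 higher and 7 of 10 lower, where 13.5% of all genes were higher and 23.6% lower, all 10, and 68.1% of all genes, had libraries that did not overlap, and the median was -3.77 over the 10 and -0.01 over all genes. Fos did not pass (-0.57, 0.118), and was called without IL-21 replicate 2 (0.049). All 16 granulocyte and basophil genes, 17 of 21 myeloid genes and 5 of 7 NK cell genes were lower in IL-21 + LDHi than without cytokine, and 6 of 14 heat shock genes were higher and 1 lower. In IL-2 + LDHi, 14 of 16 granulocyte and basophil genes and 17 of 21 myeloid genes were lower, and 8 of 14 heat shock genes were higher and 1 lower. The part of these lists was not tested.

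The wider pathway was followed with lists chosen with earlier results of these data known, so their counts are descriptions. They are to be read beside the shares of all genes tested, 11.1% higher and 20.3% lower in IL-21 + LDHi against IL-21, and 17.8% higher and 21.6% lower in IL-2 + LDHi against IL-2. Of 15 further AP-1 family genes 0 rose and 7 fell in IL-21 + LDHi against IL-21 (median -0.44), and 3 rose and 7 fell in IL-2 + LDHi against IL-2 (median -0.43). Batf3, a BATF family partner of JUN proteins, fell in both, to 0.0572 and 0.0560 RPKM in IL-21 + LDHi, against 2.246 and 1.46 in IL-21, and to 0.223 and 0.292 in IL-2 + LDHi, against 15.8 and 18.4 in IL-2. Its log2 changes were -4.97 ± 0.51 (edgeR adjusted p = 0.000118) and -6.09 ± 0.40 (1.76e-05) in those comparisons. Jdp2, an AP-1 repressor, fell by 4.78 ± 0.45 (edgeR adjusted p = 6.43e-05) with IL-21 + LDHi, and Atf3, a stress-induced ATF factor, by 4.87 ± 0.25 (8.25e-06) with IL-2 + LDHi. The Fos relative Fosl2 fell by 1.94 ± 0.19 (0.000106) in IL-2 + LDHi against IL-2. Of 19 other immediate early regulators tested, 3 rose and 5 fell with the inhibitor in IL-21, and 4 rose and 6 fell in IL-2, shares near those of all genes. Bhlhe40, a helix-loop-helix repressor, fell by 2.62 ± 0.16 (4.33e-06) in IL-21 + LDHi against IL-21 and by 2.76 ± 0.16 (9.78e-06) in IL-2 + LDHi against IL-2, and Nfil3, a bZIP repressor, fell by 2.26 ± 0.17 and 3.46 ± 0.16 in the same comparisons (1.84e-05 and 7.35e-06). Klf2, which keeps T cells in a resting, recirculating state, rose by 2.66 ± 0.23 (5.32e-05) in IL-2 + LDHi against IL-2, and Ier5 rose by 1.84 ± 0.18 (7.41e-05) in IL-21 + LDHi against IL-21.

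Feedback inhibitors, which immediate early signalling induces and which then dampen it, were mixed. Of 21 such genes 3 rose and 9 fell with the inhibitor in IL-21, and 4 rose and 9 fell in IL-2, beside 11.1% and 17.8% of all genes higher and 20.3% and 21.6% lower. Spry2, an inhibitor of receptor-driven ERK signalling, had 0.322 and 0.382 RPKM in IL-21 + LDHi, against 6.00 and 3.30 RPKM in IL-21 (-3.72 ± 0.27, edgeR adjusted p = 1.32e-05). The ERK phosphatase Dusp5 had 0.582 and 0.570 RPKM in IL-21 + LDHi, against 10.4 and 6.74 RPKM in IL-21 (-3.91 ± 0.32, 3.06e-05). Neither gene's groups overlapped. Spry1, a relative of Spry2, rose by 2.02 ± 0.18 (edgeR adjusted p = 5.09e-05) in the same comparison. Dusp4, another MAP kinase phosphatase, fell in IL-2 + LDHi to 1.19 and 1.36 RPKM, against 8.65 and 11.9 RPKM in IL-2 (-3.05 ± 0.33, 0.000179). The upstream SRF, TCF, CREB and NFAT factors had medians near 0: of 21 genes 0 rose and 7 fell in IL-21 + LDHi against IL-21 (median -0.09), and 4 rose and 3 fell in IL-2 + LDHi against IL-2 (median 0.10). The falls in IL-21 + LDHi against IL-21 included Elk3 (-0.67 ± 0.11, edgeR adjusted p = 0.00214), Mapk3 (-0.77 ± 0.14, 0.00323) and Mef2c (-2.44 ± 0.49, 0.00542). None of those 21 was called in IL-21 against no cytokine. Srf itself rose by 0.84 ± 0.12 (0.000705) in IL-2 + LDHi against IL-2, and Crem, a CREB family gene, fell there to 2.33 and 1.74 RPKM, against 14.2 and 18.3 RPKM in IL-2 (-3.03 ± 0.22, 2.53e-05).

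Genes that the literature links to NFAT, EGR and NR4A factors in T cells mostly fell when the inhibitor was added to IL-21. Of 28 such genes 1 rose and 22 fell in IL-21 + LDHi against IL-21, with a median of -3.56, beside 11.1% of all genes higher and 20.3% lower. In IL-2 + LDHi against IL-2, 6 rose and 13 fell, with a median of -0.55. Tnfrsf9 (4-1BB), a costimulatory receptor, had 0.318 and 0.245 RPKM with IL-21 + LDHi, 5.98 and 6.74 with IL-21, 6.63 and 6.65 with IL-2 + LDHi, 168.8 and 165.6 with IL-2, and 5.91 and 5.35 without cytokine. Ctla4, a receptor that restrains T cells, had 1.10 and 0.650 RPKM with IL-21 + LDHi, 36.7 and 23.3 with IL-21, 14.5 and 14.9 with IL-2 + LDHi, 187.7 and 192 with IL-2, and 69.7 and 51.3 without cytokine. Tnfrsf9 changed by -4.54 ± 0.21 (edgeR adjusted p = 1.1e-06) in IL-21 + LDHi against IL-21 and by -4.70 ± 0.17 (3.53e-06) in IL-2 + LDHi against IL-2, and Ctla4 by -5.11 ± 0.26 (1.79e-06) and -3.73 ± 0.23 (1.26e-05) in the same comparisons. Both thus fell in each without overlap of libraries, unlike Egr2 and Egr3, which rose with the inhibitor in IL-2.

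**Figure D4:**
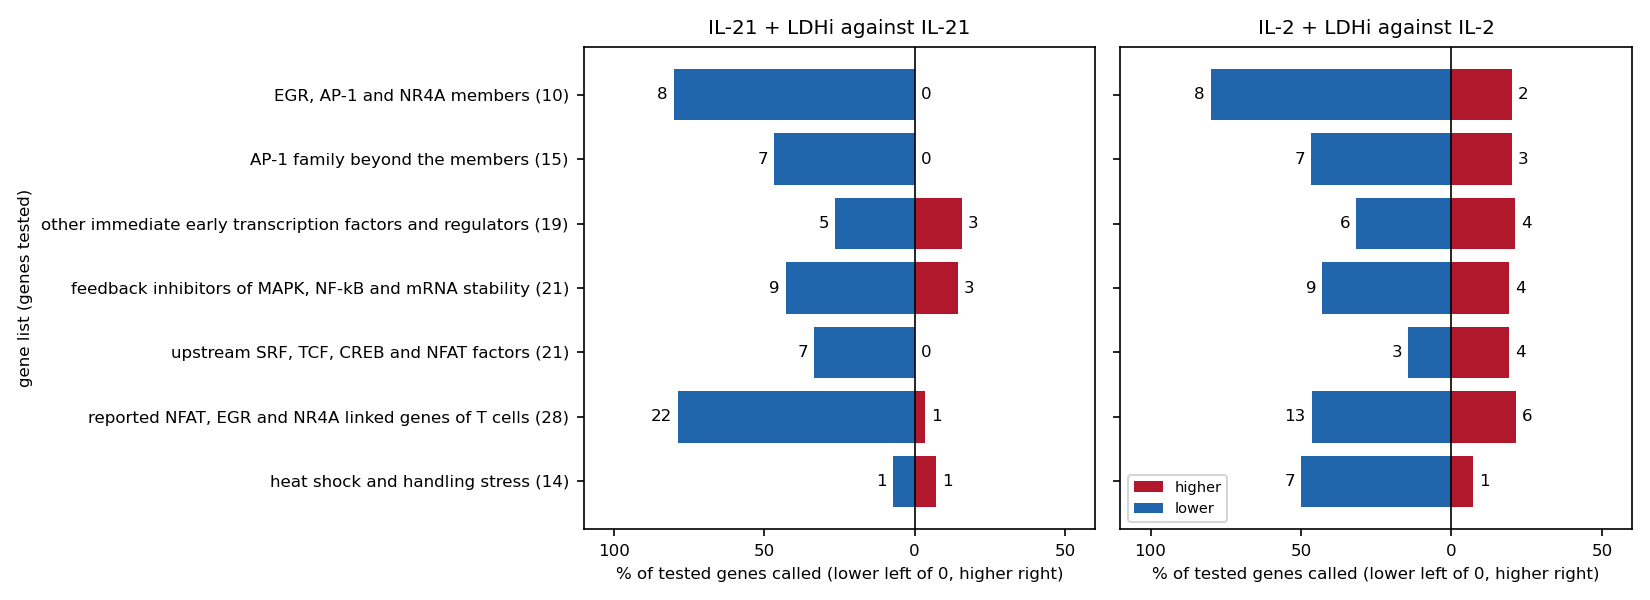
Percent of the tested genes of each list called higher (right of 0) and lower (left of 0) for IL-21 + LDHi against IL-21 and IL-2 + LDHi against IL-2. The numbers beside the bars are counts of genes. In the list of genes linked to NFAT, EGR and NR4A factors 22 of 28 were lower with IL-21 + LDHi, and 13 of 28 with IL-2 + LDHi.

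The members' patterns over the 10 libraries were compared by the root mean square difference of their centred log2 CPM (counts scaled by library size), where a smaller value means a closer pattern. The closest pairs were Egr1 with Nr4a1 (0.433), Egr2 with Egr3 (0.522), Nr4a1 with Nr4a3 (0.600), Nr4a1 with Nr4a2 (0.607), Fosb with Nr4a1 (0.614), Egr1 with Fosb (0.649) and Jun with Junb (0.689), and the farthest was Jun with Nr4a2 (2.90). Egr1 was thus closer to Nr4a1 than Egr2 was to Egr3, although it belongs to the EGR family. Other genes were then searched, without predicted Gm and Rik genes, immunoglobulin and T cell receptor segments and the other members. Among them the closest to a member was Zfp36, which encodes an mRNA decay factor, with Junb (0.161). The measure depends on how much a member itself varies: the root mean square of its centred values was 0.797 for Junb and 2.11 for Nr4a2. The closest genes to the others were Inppl1 for Fosb (0.22), Rgs16 for Nr4a1 (0.222), Prss16 for Fos (0.291), Ryk for Egr1 (0.311), Ly6a for Jun (0.311), Unc119 for Nr4a3 (0.314), Vangl1 for Egr2 (0.354), Adap1 for Nr4a2 (0.454) and Rap1gap2 for Egr3 (0.483). These values describe 10 libraries in 5 groups that share their cells' preparation and their scaling and are given as descriptions after a search of the 14357 genes tested, less those left out.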

How the data were processed

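Poly(A) RNA-seq libraries of 10 samples in 5 groups of 2 were used, with groups taken from the titles. Each deposited table holds the authors' counts of reads for every RefSeq transcript, and beside them the RPKM that the authors derived with the library total and transcript length. Per the submitters' processing notes, the tools were Bowtie2 2.2.6, TopHat2 (given as 2.2.1), SAMtools 0.1.8, bedtools 2.25.0 and edgeR, with the mm10 build. Whether counting used strand is not stated in the sources used here, so reads of overlapping antisense transcripts cannot be told apart from those of a gene.

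Each of 23992 symbols was represented by 1 transcript, that with the highest sum of reads; of the members only Nr4a2 has several transcripts. Counts were fitted over all 10 libraries in edgeR 4.0.16 under R 4.3.3: low genes were removed by filterByExpr with a minimum count of 10 and a minimum total of 15, libraries were scaled by TMM, and a robust quasi-likelihood fit gave 9 two-sided comparisons adjusted by Benjamini-Hochberg over 14357 genes. The common biological coefficient of variation was 0.171. The alternatives were DESeq2 1.42.0, library size alone, other scalings and filters, limma 3.58.1 on log2(RPKM + 1) and log2(RPKM + 0.1), a block for the replicate number, fits restricted to the groups under comparison, and leaving out each library. Promoter sequences were searched, and figures drawn, in Python 3.11.15 (matplotlib 3.10.9, numpy 2.4.6, pandas 2.3.3). The test was tested on simulated data.

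The replicate numbers were taken not to pair the libraries. The members, the gene lists and the tests were chosen with earlier results of these data known. Genes named from the pathway lists were at most 3 per list and comparison, by adjusted p among those called. The closest gene to each member was also named. From the granulocyte list, genes without reads in both IL-21 + LDHi libraries were named. Cd28, Cd5, Lck, Ly6c2, Ctss, Klrk1, Eomes, Klre1, Ncr1 and Klrb1c, from the cell marker lists, followed none of these rules. They were picked with their values seen, as was Hspa1a. The choice of Tnfrsf9, Ctla4, Batf3, Spry2, Dusp5, Dusp4 and Crem for values by library was made after their values were seen.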

Additional observations from a re-analysis of the deposited data

Results flagged for a closer look

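A difference of the inhibitor's effect between the cytokines, tested as the log2 change of IL-21 + LDHi against IL-21 minus that of IL-2 + LDHi against IL-2, passed edgeR's quasi-likelihood test for 8 of the 10 genes. The differences were -6.92 for Egr3, -4.93 for Egr2 and -3.32 for Egr1. In the NR4A family they were -2.80 for Nr4a1, -2.22 for Nr4a2 and -1.73 for Nr4a3. In the AP-1 family they were -1.81 for Fosb and 1.44 for Jun. Egr2 and Egr3 were the members with called changes of opposite direction with IL-21 and with IL-2. With 2 libraries a group, no library could be tested as an outlier.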

How the results depend on the processing

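Over the 9 comparisons, 10 genes and 19 alternatives gave 1710 values, of which 1609 kept their direction and their side of the threshold, 67 lost a call and 20 gained one with the direction kept. The sign changed in 14, of which 12 were small values called neither before nor after. The 2 called values that changed sign were those of the interaction with limma on log2(RPKM + 1), at 0.46 for Nr4a2 and 0.17 for Nr4a3. The number of the 10 genes called in IL-21 against no cytokine was 2 with only the groups compared, against 4 with all groups. In the interaction it was 4 with limma on log2(RPKM + 1) and 5 with limma on log2(RPKM + 0.1), against 8 by counts. The causes were not tested. Leaving out each library in turn gave 8 to 8 called genes for IL-21 + LDHi against IL-21, 7 to 10 for IL-2 + LDHi against IL-2, 9 to 9 for IL-21 + LDHi against IL-2 + LDHi, 5 to 9 for the interaction, 6 to 9 for IL-2 against no cytokine, 2 to 5 for IL-21 against no cytokine, 6 to 9 for IL-21 against IL-2, 0 to 4 for IL-2 + LDHi against no cytokine and 9 to 10 for IL-21 + LDHi against no cytokine.

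The replicate numbers could not be shown to pair the libraries: of 10 correlations of the replicate differences between groups, from -0.147 to 0.483, 3 were over 0.1, and only 2 numbers exist. With the replicate number as a block, 9 genes were called in IL-21 against IL-2, where Fos (-0.61, adjusted p = 0.0247) and Fosb (-0.71, 0.0318) gained the call. In IL-21 + LDHi against no cytokine 10 were called, with Fos at -0.57 (adjusted p = 0.0492). The block changed no other call among the 10 genes.

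Counts over all genes were less stable. With only the groups compared, the genes called were 91 against 1657 for IL-21 against no cytokine, 4522 against 7123 for IL-21 against IL-2, 9070 against 5657 for IL-2 + LDHi against IL-2, 2259 against 4500 for IL-21 + LDHi against IL-21 and 7352 against 3741 for IL-21 + LDHi against IL-2 + LDHi. Without IL-21 replicate 1 the counts were 3967 for IL-21 against no cytokine and 5201, against 3122, for the interaction. Leaving out a library not named above gave 749 to 1080 for IL-21 against no cytokine (without no-cytokine replicate 2, or either IL-2 or IL-2 + LDHi library), 4511 for IL-21 against IL-2 (without IL-2 replicate 1), 3379 and 3654 for IL-2 + LDHi against IL-2 (without either IL-2 library), 3539, against 5322, for IL-21 + LDHi against no cytokine (without IL-21 + LDHi replicate 1) and 1742 to 1956 for the interaction (without any IL-21 + LDHi, IL-2 + LDHi or IL-2 library). Without either inhibitor library they fell to 2453 to 2604 for IL-21 + LDHi against IL-21, 3113 to 3140 for IL-2 + LDHi against IL-2, 2056 to 2221 for IL-21 + LDHi against IL-2 + LDHi and 1556 to 1595, against 3474, for IL-2 + LDHi against no cytokine. With only the groups compared, the share of calls that were higher was 86.8%, against 48.9%, for IL-21 against no cytokine. In the same fits it was 19.8%, against 35.3%, for IL-21 + LDHi against IL-21 and 47.5%, against 36%, for IL-21 + LDHi against IL-2 + LDHi. This share was 56.3% with library size alone, against 45.2%, for IL-2 + LDHi against IL-2, 25.3%, against 36.7%, for the interaction, and 24.8% with limma on log2(RPKM + 1), against 48.9%, for IL-21 against no cytokine. With limma on log2(RPKM + 1) it was also 30.9%, against 50.3%, for IL-21 against IL-2, 19.4%, against 36%, for IL-21 + LDHi against IL-2 + LDHi, 25.6%, against 36.4%, for IL-21 + LDHi against no cytokine and 50.1%, against 36.7%, for the interaction. Library size alone shifted the median of all genes by -0.14 in IL-2 against no cytokine, 0.12 in IL-2 + LDHi against IL-2 and -0.14 in the interaction, and limma on RPKM by -0.11 to -0.19 in 4 comparisons. Depth limits the lowest members: Nr4a2 and Nr4a3 had 6 to 10 reads in IL-21 + LDHi.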
